A study of Mus musculus with 23 samples.

Results

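This comparison set prefrontal cortex at postnatal week 10 against prefrontal cortex at postnatal week 2, taken as every array labelled with either age: 4 week 10 and 6 week 2 arrays of 23 in all. Each array held RNA from 1 male C57BL/6 mouse bred in the submitters' own colony, with no treatment or altered allele, hybridised to an Affymetrix MOE430A chip. The cortex was removed with a single coronal cut behind the frontal pole and snap frozen, so each sample mixes all cell types of the piece and anything else in front of the cut. The series, which also holds weeks 3, 4 and 5, follows gene expression as this cortex matures after birth. The adjusted p-values below set the difference between the 2 ages against the spread between animals of the same age. That spread was pooled over all 23 arrays, weeks 3, 4 and 5 included.

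At the younger age the mouse cortex is still being built: neurons extend neurites and form synapses, oligodendrocyte precursors are dividing and beginning to wrap axons, vessels are sprouting, and astrocytes are taking on their mature shape. At the older age the animal is an adult, myelin is laid down, fast-spiking interneurons have matured and synapses have been pruned. The prefrontal cortex is among the later cortical regions to reach this state.

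Values are GCRMA signals on the log2 scale, so that 1 unit is a 2-fold difference in signal. Each gene is represented by its brightest tested probe set. A change is the fitted log2 difference, week 10 minus week 2, with its standard error after the ± sign, and can differ slightly from the difference of the group means because batch is a term of the fit. Group means carry the SD between animals (n = 4 at week 10, n = 6 at week 2). A gene is called, and said to rise or fall, when its adjusted p is under 0.05 over all 16103 probe sets tested.

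All 4 week 10 arrays were in batch 1, as were 4 of the 6 week 2 arrays, and the other 2 were in batch 2. These are the batches of the titles. The description of week 2 animal 5 gives batch 2 in place of batch 1, and with that label 2247 probe sets were called, 780 higher and 1467 lower. The week 10 arrays were scanned on days 1, 2, 2 and 4 and the week 2 arrays on days 3, 3, 3, 4, 7 and 7, numbered in time order, so only day 4 held both ages. Array medians did not overlap between the ages, at 6.148 to 6.223 at week 10 and 6.239 to 6.268 at week 2. The 3 prime minus 5 prime difference of the beta-actin control probe sets, a measure of RNA integrity, was 1.56 ± 0.17 at week 10 and 1.28 ± 0.23 at week 2 (exact permutation test, two-sided, p = 0.0571), and within batch 1 it was 1.56 ± 0.17 against 1.42 ± 0.06 (p = 0.171). Its part in the results was not tested beyond a fit with it as a covariate, which called 2576 probe sets. The Gapdh measure was 0.752 in week 10 animal 1, while the remaining week 10 arrays lay between 0.017 and 0.147 and the week 2 arrays between 0.117 and 0.280. Week 10 animal 1 was also the only one of the 10 arrays from chip lot 1.

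Markers of cortical neurons were present at both ages, and 1 of 6 measured members was called (the neurogranin gene Nrgn, lower). Striatal genes varied between animals of both ages. The mean of the 11 measured striatal genes was 8.85, 8.62, 7.17 and 7.32 in week 10 animals 1, 6, 7 and 8, against 7.17 to 8.60 in the week 2 animals. The mean of the cortical list was lower in the same first 2 week 10 animals, at 9.88, 9.77, 10.38 and 10.45, against 10.19 to 10.49 at week 2. None of the 11 striatal genes was called by limma, 0 had an unadjusted p under 0.05, and their median change was 0.17. Their standard errors were wide, as for the dopamine receptor gene Drd2 (0.49 ± 0.85) and the enkephalin gene Penk (0.66 ± 0.65). In bulk tissue, fewer cells of a type and less RNA per cell cannot be told apart, and this holds for every gene below.

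Of the 16103 probe sets, 2748 were called (17.1%), 1031 of them higher (6.40%) and 1717 lower (10.7%) at week 10. By gene, 1701 of 9198 were called (18.5%): 655 were higher (7.12%) and 1046 lower (11.4%). These shares are the background for every list below. The excess of falls depended on scaling: with each array centred on its median 1388 probe sets were higher and 1340 lower (50.9% higher, against 37.5%), and a further quantile step gave 1482 and 1395 (51.5% higher). Batch 1 arrays alone gave 932 higher and 1787 lower. A fit with a fixed effect of scan day, which leaves out week 3, gave 714 and 809. On day 4, 94.4% of the 2081 probe sets called without its 2 arrays differed in the same direction between those arrays.

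Most changes were small. The median called rise was 0.46 (1.37-fold) and the median called fall -0.49 (1.4-fold). At least 2-fold, 32 genes were higher (0.348%) and 102 lower (1.11%). At least 4-fold, 2 were higher and 11 lower. The 2 that rose were Il33, an alarmin cytokine gene, and Ndrg1, a gene of the myelin sheath. Among the 11 that fell were the fibrillar collagen gene Col3a1, the immature-neuron surface gene Cd24a, the growth cone gene Marcksl1, the basement membrane gene Nid1 and the DNA methyltransferase gene Dnmt3a. The animals of the 2 ages did not overlap for 601 genes that were higher (6.53%) and 856 that were lower (9.31%) at week 10.

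Genes were grouped into 52 lists of 1270 genes, of which 1081 had a probe set with 1 symbol and 989 passed the filter on low values. Of those measured, 13 had a mean below log2 4 at week 10 and 10 at week 2. Members and lists were chosen with earlier results of these data known, so their shares are not independent of the data. The chart shows called members by list, for lists with at least 10 measured members except the striatal list. In it, lower calls were concentrated in oligodendrocyte precursor, tubulin, neural matrix, collagen, growth cone and insulin-like growth factor lists. Higher calls were concentrated in the myelin, interferon and glycolysis lists. The precursor and neural matrix lists share members.

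**Figure D1:**
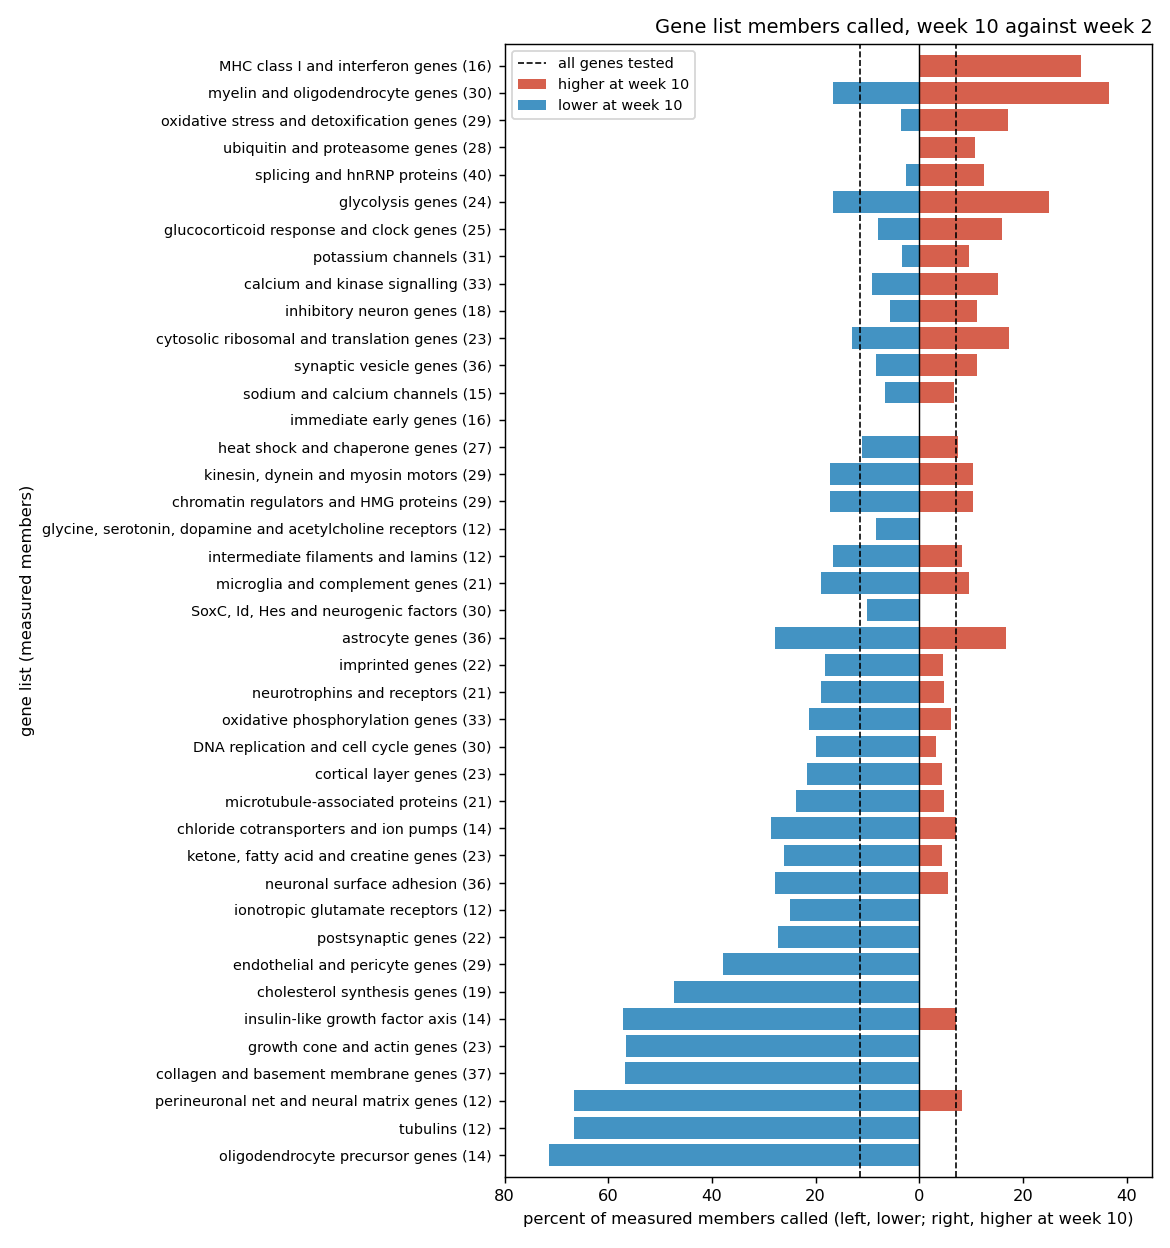
Percent of measured members called at week 10 against week 2, for gene lists with at least 10 measured members, the striatal list left out. Bars to the right count members that were higher and bars to the left members that were lower at week 10. Dashed lines mark the shares over all 9198 genes, 7.12% and 11.4%. The oligodendrocyte precursor list reached 71.4% lower and the myelin list 36.7% higher.

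Many genes that build growing neurites fell. Tubulins form microtubules, which doublecortin and stathmins tune in growing neurites. The MARCKS family and GAP-43 organise actin under the growth cone membrane, and the Dpysl family relays guidance signals there. None of the 23 measured growth cone and actin genes was higher and 13 were lower (56.5%, against 11.4% of all genes), with a median change of -0.40. Of the 12 tubulins, 0 were higher and 8 lower (66.7%), with a median of -0.48. Under the scan-day effect 10 growth cone genes and 6 tubulins were lower, and with batch 1 arrays alone 13 and 8.

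Marcksl1, a membrane and actin binding protein gene, read 9.83, 10.23, 10.21 and 9.80 in the 4 week 10 animals, against 12.32 to 12.82 with a median of 12.47 in the 6 week 2 animals. The ages were more than 2 units apart at their nearest animals, and the gene fell by 2.52 ± 0.16 (5.72-fold, adjusted p 1.97e-09). Its relative Marcks fell by 0.67 ± 0.12 (1.59-fold, adjusted p 0.000369). Dpysl3, for a collapsin response mediator protein, read 8.74, 8.18, 8.43 and 8.29 in the 4 week 10 animals, against 10.37 to 11.60 with a median of 10.53 in the 6 week 2 animals. It fell by 2.27 ± 0.31 (4.84-fold, adjusted p 2.66e-05), and the 2 batch 2 animals were the highest of week 2. In batch 1 alone the change was -2.06 (adjusted p 7.68e-05). Dpysl5 of the same family fell by 1.89 ± 0.27 (3.71-fold, adjusted p 4.69e-05). Its relatives Dpysl4 and Crmp1 fell by 1.31 ± 0.13 and 1.10 ± 0.16, whereas Dpysl2 was near the filter at both ages, at 4.27 ± 0.04 at week 10 and 4.18 ± 0.25 at week 2, a difference of 0.13 ± 0.11 (adjusted p 0.458). Gap43 fell by 0.69 ± 0.11 (1.62-fold, adjusted p 0.000142) and Basp1, another growth cone membrane gene, fell by 0.43 ± 0.09 (1.35-fold, adjusted p 0.00253). The actin monomer binding gene Tmsb10 read 13.47, 13.82, 13.82 and 13.77 at week 10, against a lowest, median and highest value of 13.95, 14.20 and 14.29 at week 2. Week 10 animal 1 was lowest in Tmsb10, yet no week 10 animal reached the week 2 range, and the gene fell by 0.47 ± 0.10 (1.39-fold, adjusted p 0.00219). Its relative Tmsb4x was 13.15 ± 0.03 at week 10 and 13.30 ± 0.06 at week 2, a difference of -0.14 ± 0.06 (adjusted p 0.116). Beta-actin itself, Actb, was 14.15 ± 0.13 at week 10 and 14.43 ± 0.51 at week 2, a difference of -0.09 ± 0.20 (adjusted p 0.79).

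Among tubulins, the beta isotypes of developing neurons changed most. Tubb2b read 10.57, 10.20, 10.66 and 10.28 in the 4 week 10 animals, against 11.09 to 12.07 with a median of 11.44 in the 6 week 2 animals. Tubb2b fell by 1.05 ± 0.21 (2.07-fold, adjusted p 0.00133). Tubb3, the isotype used as a mark of neurons, read 10.13, 10.21, 10.48 and 10.14 at week 10, against a lowest, median and highest value of 10.79, 11.09 and 11.75 at week 2. Tubb3 fell by 0.88 ± 0.14 (1.84-fold, adjusted p 0.000132). Tubb2a, Tubb5, Tubb4b and the alpha isotype Tuba1a fell by 0.75 ± 0.10, 0.65 ± 0.10, 0.56 ± 0.08 and 0.55 ± 0.09, with no overlap between ages in any of them. Tuba4a, an alpha isotype, was 13.19 ± 0.05 at week 10 and 13.37 ± 0.08 at week 2, a difference of -0.17 ± 0.09 (adjusted p 0.206), and Tuba8 was 6.11 ± 0.05 at week 10 and 6.05 ± 0.21 at week 2, a difference of 0.02 ± 0.11 (adjusted p 0.916). The isotypes are close in sequence, so probe sets may share signal between them.

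Of 21 microtubule-associated genes, 1 was higher and 5 were lower (4.76% and 23.8%). Dcx, the doublecortin gene of migrating and newly placed neurons, read 6.91, 6.91, 7.35 and 6.88 in the 4 week 10 animals, against 8.17 to 8.75 with a median of 8.34 in the 6 week 2 animals. Week 10 animal 7 was the highest of its group and still under every week 2 animal, and the gene fell by 1.49 ± 0.27 (2.81-fold, adjusted p 0.000597). Its paralogue Dclk1 fell by 0.33 ± 0.07 (1.26-fold, adjusted p 0.00195). Stmn2, a stathmin of growth cones, fell by 0.88 ± 0.13 (1.84-fold, adjusted p 5.44e-05), while Stmn1 was 13.33 ± 0.10 at week 10 and 13.54 ± 0.11 at week 2, a difference of -0.21 ± 0.09 (adjusted p 0.118). Mapre1, for the plus-end tracking protein EB1, fell by 0.79 ± 0.10 (1.73-fold, adjusted p 1.5e-05). Mapre2 fell by 0.39 ± 0.11 (1.31-fold, adjusted p 0.0215), a call lost without week 10 animal 1 or 6 and in batch 1 alone. Map7, whose product brings kinesin to microtubules, rose by 0.42 ± 0.11 (1.34-fold, adjusted p 0.0127). The dendritic Map2 and the axonal Mapt were 8.47 ± 1.29 at week 10 and 8.66 ± 0.51 at week 2, a difference of -0.23 ± 0.54 (adjusted p 0.806), and 11.16 ± 0.04 at week 10 and 11.54 ± 0.70 at week 2, a difference of -0.04 ± 0.20 (adjusted p 0.92). The 2 errors are of the size of the differences or larger.

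Of 12 measured intermediate filament, lamin and nuclear envelope genes 1 was higher and 2 lower (8.33% and 16.7%), against 7.12% and 11.4% of all genes. The 2 lower were Nefl and the astrocyte gene Gfap. Nefl, the light neurofilament subunit, fell by 0.46 ± 0.07 (1.38-fold, adjusted p 5.74e-05). Its partner subunits were not called: Nefm was 10.83 ± 0.21 at week 10 and 11.16 ± 0.09 at week 2, a difference of -0.28 ± 0.11 (adjusted p 0.0725) and Nefh was 8.99 ± 0.12 at week 10 and 8.86 ± 0.17 at week 2, a difference of 0.13 ± 0.10 (adjusted p 0.411). In batch 1 alone Nefm was called, at -0.33 (adjusted p 0.044). The higher gene, Syne1, for a nesprin that ties the nucleus to the cytoskeleton, read 10.20, 10.29, 10.17 and 10.32 in the 4 week 10 animals, against 9.15 to 9.74 with a median of 9.55 in the 6 week 2 animals. Syne1 rose by 0.73 ± 0.11 (1.66-fold, adjusted p 8.4e-05). Of the 29 motor genes 3 were higher and 5 lower (10.3% and 17.2%), and leaving out single arrays moved these to between 1 and 3 and between 2 and 5. Of them, Myo5a, the myosin that carries cargo into dendritic spines, rose by 0.43 ± 0.12 (1.35-fold, adjusted p 0.013), and the kinesin-2 subunit gene Kif3b fell by 0.49 ± 0.10 (1.4-fold, adjusted p 0.00155).

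Surface molecules that guide axons and join cells followed in part. Of 36 measured adhesion genes 2 were higher and 10 lower (5.56% and 27.8%), and under the scan-day effect 1 was higher and 5 lower. Cd24a, whose small glycoprotein marks immature neurons, read 8.01, 6.94, 7.15 and 6.86 in the 4 week 10 animals, against 9.97 to 10.66 with a median of 10.13 in the 6 week 2 animals. Week 10 animal 1 was the highest of its age, at 8.01, about 2 units under the lowest week 2 animal. The gene fell by 3.05 ± 0.33 (8.28-fold, adjusted p 1.86e-06). L1cam and Ncam1, adhesion molecules of axons, fell by 0.72 ± 0.14 and 0.66 ± 0.12. The cadherin genes Cdh13 and Cdh11 fell by 0.96 ± 0.14 and 0.52 ± 0.13, and the guidance receptor gene Robo1 fell by 0.85 ± 0.22 (1.81-fold, adjusted p 0.00863). Nlgn2, whose product lies at inhibitory synapses, fell by 0.48 ± 0.12 (1.4-fold, adjusted p 0.00777). Against these, Nptx1, for a neuronal pentraxin that gathers AMPA receptors, read 11.13, 10.86, 11.25 and 11.35 in the 4 week 10 animals, against 9.71 to 10.60 with a median of 10.40 in the 6 week 2 animals. Nptx1 rose by 0.77 ± 0.15 (1.7-fold, adjusted p 0.00111). The other higher gene, the netrin receptor gene Dcc, lay near the filter and rose by 0.42 ± 0.13 (1.34-fold, adjusted p 0.0314), a call lost without any 1 of week 10 animals 1, 6 and 7 or week 2 animals 3 and 5. Nptx2, a relative of Nptx1 and an activity-regulated pentraxin, was 8.30 ± 0.11 at week 10 and 8.78 ± 0.30 at week 2, a difference of -0.44 ± 0.20 (adjusted p 0.143). In batch 1 alone it was called, at -0.59 (adjusted p 0.0277).

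**Figure D2:**
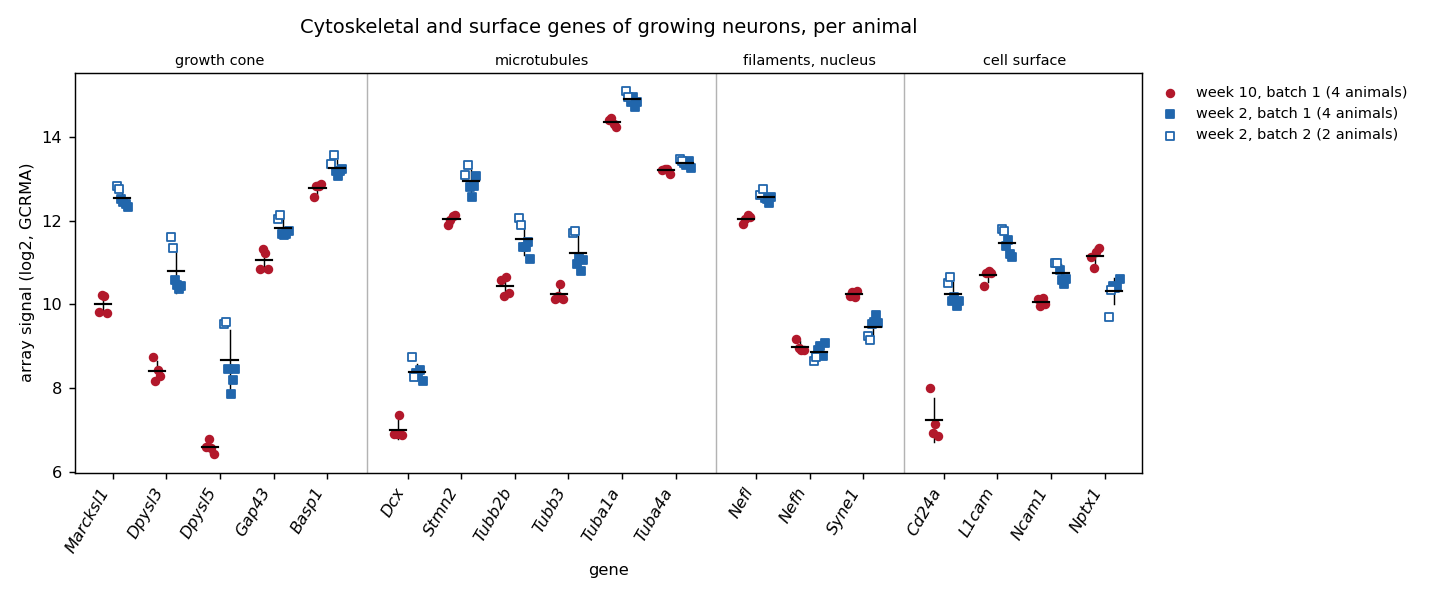
Log2 signal of neurite and surface genes in each animal, week 10 as red circles left of week 2 as blue squares (open for batch 2); horizontal bars are means and vertical lines ± 1 SD. Marcksl1 lay between 9.80 and 10.23 at week 10 and between 12.32 and 12.82 at week 2, while Nefh overlapped and Syne1 and Nptx1 were higher at week 10.

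Collagens and the basement membrane showed some of the steepest falls. The basement membrane around brain vessels and under the meninges is a sheet of type IV collagen and laminin joined by nidogen, while fibrillar collagens lie in the meninges and around larger vessels. Of 42 listed genes 37 were measured, 0 were higher and 21 lower (56.8%), and the median change was -0.53. Batch 1 alone gave 20 lower and the scan-day effect 17.

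Col3a1, a fibrillar collagen, read 5.67, 5.47, 4.85 and 5.07 in the 4 week 10 animals, against 8.02 to 9.01 with a median of 8.71 in the 6 week 2 animals. The ages were more than 2 units apart at their nearest animals, and Col3a1 fell by 3.44 ± 0.26 (10.8-fold, adjusted p 1.45e-08). Col1a2 read 6.36, 6.99, 6.21 and 6.35 at week 10, against a lowest, median and highest value of 7.80, 8.43 and 8.75 at week 2. Col1a2 fell by 1.76 ± 0.16 (3.38-fold, adjusted p 2.1e-07). Its chain partner Col1a1 had a smaller change and fell by 0.53 ± 0.15 (1.44-fold, adjusted p 0.0149), a call lost without week 10 animal 8. The type IV chains Col4a1 and Col4a2, which assemble together, fell by 1.70 ± 0.11 (3.24-fold, adjusted p 2.12e-09) and 0.96 ± 0.11 (1.94-fold, adjusted p 5.03e-06). Nid1, the nidogen that links laminin to type IV collagen, read 4.87, 4.25, 4.80 and 4.46 in the 4 week 10 animals, against 6.79 to 7.37 with a median of 7.08 in the 6 week 2 animals. Nid1 fell by 2.45 ± 0.18 (5.46-fold, adjusted p 1.45e-08). Lamc1, the common gamma chain of laminins, fell by 1.43 ± 0.13 (2.7-fold, adjusted p 2.92e-07). Of the laminin chains that can pair with it, Lama4 fell by 0.69 ± 0.15 (1.61-fold, adjusted p 0.00236), while Lamb1 was 6.75 ± 0.24 at week 10 and 7.0 ± 0.19 at week 2, a difference of -0.23 ± 0.12 (adjusted p 0.196) and Lamb2 was 6.38 ± 0.31 at week 10 and 6.68 ± 0.14 at week 2, a difference of -0.28 ± 0.14 (adjusted p 0.179).

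Other matrix genes were lower too. Npnt, for the integrin ligand nephronectin, read 7.09, 6.08, 7.35 and 7.60 at week 10, against a lowest, median and highest value of 9.34, 9.49 and 10.05 at week 2. Npnt fell by 2.50 ± 0.26 (5.67-fold, adjusted p 1.11e-06). Fn1, for fibronectin, fell by 1.20 ± 0.11 (2.3-fold, adjusted p 2.12e-07). The collagen binding genes Sparc and Serpinh1, of which Serpinh1 is the collagen chaperone of the endoplasmic reticulum, fell by 1.23 ± 0.20 and 1.12 ± 0.13. The small proteoglycan genes Bgn and Dcn fell by 0.78 ± 0.13 and 1.17 ± 0.18. Ctsk, for the collagen degrading protease cathepsin K, fell by 1.74 ± 0.12 (3.33-fold, adjusted p 8.15e-09), with a week 10 mean below log2 4. Ppic, for cyclophilin C, fell by 2.87 ± 0.26 (7.31-fold, adjusted p 2.12e-07), with a week 10 mean of 2.23, below the filter level. Emid1, an extracellular matrix gene, fell by 1.65 ± 0.18 (3.15-fold, adjusted p 3.01e-06). Timp3, a metalloproteinase inhibitor of the matrix, was 8.23 ± 0.42 at week 10 and 8.32 ± 0.13 at week 2, a difference of 0.03 ± 0.19 (adjusted p 0.923), and Hspg2, for perlecan, was 7.79 ± 0.18 at week 10 and 7.96 ± 0.14 at week 2, a difference of -0.16 ± 0.10 (adjusted p 0.302). The mean of the 9 measured meninges and fibroblast genes was 5.64 to 6.14 at week 10 and 6.03 to 6.54 at week 2. Of these 9 only Dcn and Igf2 were called, both lower, and the part of meninges in the collagen values was not tested.

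Vessel genes were lower or not called. Of 29 measured endothelial and pericyte genes 0 were higher and 11 lower (37.9%), with a median of -0.33. Under the scan-day effect 7 were lower. Cd93, a receptor of endothelial cells, read 5.93, 5.64, 5.60 and 6.19 in the 4 week 10 animals, against 7.30 to 8.45 with a median of 8.16 in the 6 week 2 animals. Cd93 fell by 2.20 ± 0.22 (4.58-fold, adjusted p 5.72e-07). Kdr, the main receptor for vascular endothelial growth factor, fell by 1.02 ± 0.13 (2.03-fold, adjusted p 9.62e-06). Vwf, Pecam1 and Eng, surface or secreted products of endothelium, fell by 1.08 ± 0.15, 0.61 ± 0.16 and 0.58 ± 0.12. The tight junction gene Cldn5 fell by 0.78 ± 0.15 (1.71-fold, adjusted p 0.000937), and the pericyte gene Rgs5 fell by 0.71 ± 0.11 (1.64-fold, adjusted p 8.32e-05). Slc7a5, a carrier of large amino acids, fell by 1.00 ± 0.14 (2.0-fold, adjusted p 3.12e-05). Slc2a1, the glucose carrier of the barrier, was 10.07 ± 0.19 at week 10 and 9.88 ± 0.31 at week 2, a difference of 0.20 ± 0.21 (adjusted p 0.547). Abcb1a, the drug efflux pump, was 8.12 ± 0.24 at week 10 and 7.61 ± 0.34 at week 2, a difference of 0.41 ± 0.18 (adjusted p 0.127), and its animals did not overlap between ages. Itm2a and Flt1, both expressed by endothelium, changed by -0.07 ± 0.10 and 0.19 ± 0.11 without passing the test.

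**Figure D3:**
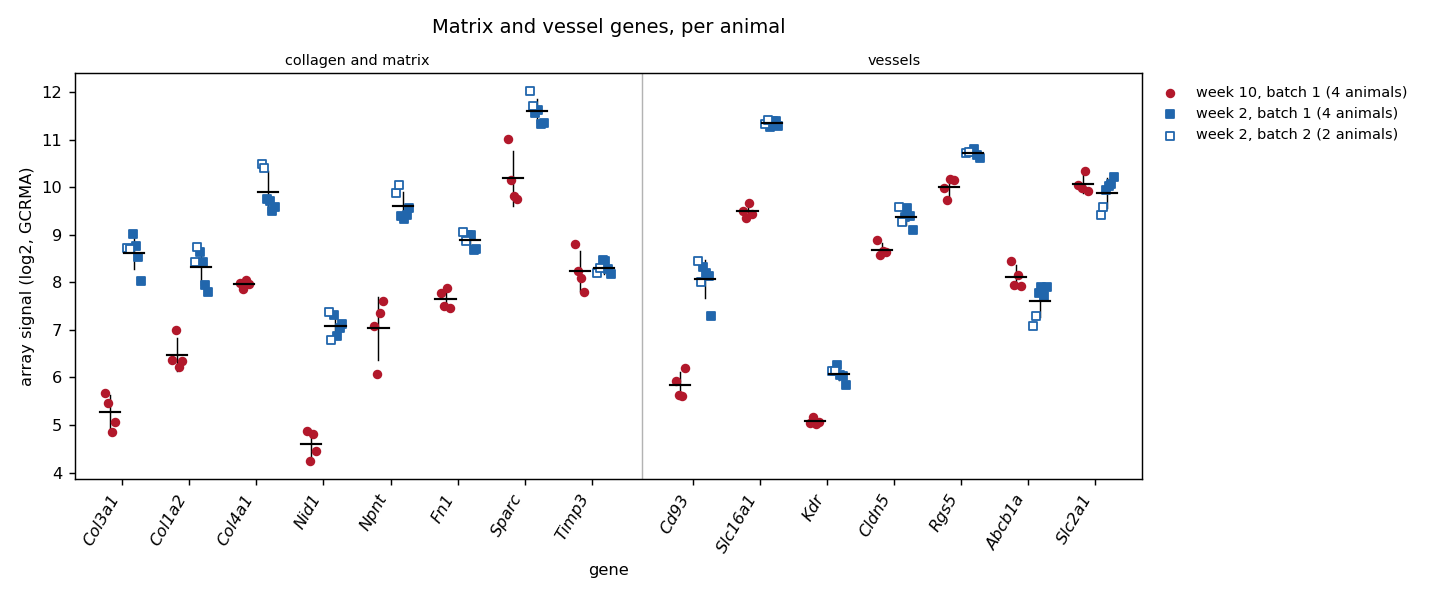
Log2 signal of matrix and vessel genes in each animal, week 10 as red circles left of week 2 as blue squares (open for batch 2), with means and ± 1 SD. Col3a1 lay between 4.85 and 5.67 at week 10 and between 8.02 and 9.01 at week 2, and Timp3, Abcb1a and Slc2a1 did not pass the test.

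As background, fuel use of the brain shifts after weaning from ketone bodies, which come from milk fat, towards glucose. Slc16a1, for the monocarboxylate carrier MCT1 that brings ketone bodies and lactate across the vessel wall, read 9.51, 9.35, 9.68 and 9.43 in the 4 week 10 animals, against 11.27 to 11.41 with a median of 11.36 in the 6 week 2 animals. Its animals varied by little within each age, and it fell by 1.90 ± 0.12 (3.72-fold, adjusted p 1.97e-09). The 3 enzymes that turn ketone bodies into acetyl-CoA fell as well. Bdh1 read 9.46, 9.69, 9.65 and 9.51 at week 10, against a lowest, median and highest value of 10.59, 10.69 and 10.88 at week 2. Bdh1 fell by 1.13 ± 0.09 (2.19-fold, adjusted p 5.92e-08). Oxct1 fell by 0.86 ± 0.10 (1.82-fold, adjusted p 3.41e-06), and Acat1 fell by 0.59 ± 0.09 (1.5-fold, adjusted p 7.01e-05). Fatty acid genes moved both ways: Fads2 and Elovl6, a desaturase and an elongase, fell by 0.88 ± 0.11 and 0.48 ± 0.11, while the desaturase gene Scd1 rose by 0.44 ± 0.09 (1.35-fold, adjusted p 0.00125) and its relative Scd2 was 13.35 ± 0.11 at week 10 and 13.27 ± 0.14 at week 2, a difference of 0.08 ± 0.08 (adjusted p 0.528). Of the 23 genes on this list 1 was higher and 6 lower (4.35% and 26.1%).

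Glycolysis genes had 6 of 24 higher and 4 lower (25% and 16.7%). Leaving out week 10 animal 6 left 3 higher. Gpd1, for the glycerol phosphate shuttle, rose by 0.87 ± 0.13 (1.82-fold, adjusted p 7.01e-05), Aldoc, the astrocyte and Purkinje cell aldolase, rose by 0.46 ± 0.09 (1.37-fold, adjusted p 0.000817), and Pdk2, which restrains pyruvate dehydrogenase, rose by 0.50 ± 0.13 (1.41-fold, adjusted p 0.0145). Slc2a3, the neuronal glucose carrier, fell by 0.63 ± 0.07 (1.55-fold, adjusted p 2.59e-06). Ldha, the lactate dehydrogenase chain that favours lactate, read 11.76, 11.81, 11.84 and 11.67 at week 10, against a lowest, median and highest value of 12.09, 12.13 and 12.23 at week 2. Ldha fell by 0.39 ± 0.07 (1.31-fold, adjusted p 0.000741), while its partner chain Ldhb was 12.89 ± 0.18 at week 10 and 12.64 ± 0.24 at week 2, a difference of 0.19 ± 0.10 (adjusted p 0.217). Of 33 oxidative phosphorylation genes 2 were higher and 7 lower (6.06% and 21.2%), and under the scan-day effect 1 and 1. Atp5g1, 1 of the genes for the c subunit of ATP synthase, fell by 0.84 ± 0.08 (1.79-fold, adjusted p 4.71e-07), and Sdhd, the membrane anchor of complex II, fell by 0.40 ± 0.08 (1.32-fold, adjusted p 0.00221).

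Cholesterol synthesis was lower or not called at every measured step. Oligodendrocytes and neurons of the young brain make their own cholesterol, much of it for myelin. Of 19 measured genes 0 were higher and 9 lower (47.4%), with a median of -0.27. Under the scan-day effect 4 were lower. Hmgcs1, which makes the first committed precursor, read 12.18, 12.12, 12.46 and 12.31 in the 4 week 10 animals, against 12.60 to 13.08 with a median of 12.95 in the 6 week 2 animals. Hmgcs1 fell by 0.61 ± 0.10 (1.53-fold, adjusted p 0.000198). Sqle, which oxidises squalene, fell by 0.79 ± 0.12 (1.73-fold, adjusted p 8.62e-05), Dhcr7, which completes cholesterol, fell by 0.66 ± 0.09 (1.58-fold, adjusted p 5.62e-05), and Tm7sf2, a sterol reductase, fell by 1.17 ± 0.24 (2.25-fold, adjusted p 0.00164). Mvd, Cyp51 and Fdps fell by 0.58 ± 0.11, 0.47 ± 0.08 and 0.44 ± 0.11. Msmo1 and Lss, at steps between these, changed by 0.07 ± 0.13 and -0.04 ± 0.12 without passing the test. The sterol response letters TCACNCCAC stood in the promoter window of 1 of 16 members with a sequence, Hmgcs1, and in 1.4% of tested genes. Cyp46a1, the neuronal enzyme that removes cholesterol, was 10.78 ± 0.15 at week 10 and 10.87 ± 0.15 at week 2, a difference of -0.05 ± 0.12 (adjusted p 0.818).

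Oligodendrocyte precursor genes were lower, while myelin genes were called in both directions. Precursors carry the PDGF alpha receptor and the Olig factors and make proteoglycans of the neural matrix; mature cells make myelin. Of 14 measured precursor genes 0 were higher and 10 lower (71.4%), with a median of -0.63, and 11 were lower in batch 1 alone and 9 under the scan-day effect. Of 30 measured myelin and oligodendrocyte genes 11 were higher and 5 lower (36.7% and 16.7%), with a median of -0.04, and of -0.17 in batch 1 alone. The count of higher genes was 11 in batch 1 alone and under the scan-day effect, though equal counts need not be the same genes. The lower count was 11 in batch 1 alone, 2 under the scan-day effect, and 9 without week 2 animal 2. It was also 9 without the 2 week 2 arrays lowest in striatal genes, which include that animal.

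Pdgfra read 8.91, 8.27, 8.57 and 8.51 in the 4 week 10 animals, against 9.13 to 9.27 with a median of 9.19 in the 6 week 2 animals. Pdgfra fell by 0.65 ± 0.10 (1.57-fold, adjusted p 7.01e-05). Its ligand gene Pdgfa fell by 0.68 ± 0.15 (1.6-fold, adjusted p 0.00383). Olig2 read 6.22, 5.53, 5.71 and 6.19 at week 10, against a lowest, median and highest value of 6.80, 7.09 and 7.20 at week 2. Olig2 fell by 1.09 ± 0.19 (2.12-fold, adjusted p 0.000483), and Olig1 fell by 0.68 ± 0.13 (1.6-fold, adjusted p 0.000764). Sox10, a factor of the whole lineage, was 8.45 ± 0.13 at week 10 and 8.90 ± 0.25 at week 2, a difference of -0.38 ± 0.13 (adjusted p 0.0535), and it was called in batch 1 alone, at -0.46 (adjusted p 0.0144). The chondroitin sulphate proteoglycan gene Vcan read 5.29, 5.69, 5.40 and 5.36 in the 4 week 10 animals, against 6.99 to 7.50 with a median of 7.15 in the 6 week 2 animals. It fell by 1.82 ± 0.16 (3.54-fold, adjusted p 1.73e-07), with the week 10 animals more than 1 unit under the week 2 animals. Bcan and Ncan, for brevican and neurocan, which astrocytes also make, fell by 0.94 ± 0.11 (1.92-fold, adjusted p 8.67e-06) and 0.86 ± 0.10 (1.81-fold, adjusted p 5.6e-06). Ptprz1, a receptor phosphatase and proteoglycan, fell by 0.39 ± 0.09 (1.31-fold, adjusted p 0.00356). Of the 12 perineuronal net and neural matrix genes, which share Vcan, Bcan, Ncan, Ptprz1 and Cspg5 with the precursor list, 1 was higher and 8 lower (8.33% and 66.7%).

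The major structural myelin genes were not called in the fit of all arrays. Mbp, for myelin basic protein, was 14.63 ± 0.12 at week 10 and 14.75 ± 0.16 at week 2, a difference of -0.12 ± 0.11 (adjusted p 0.508). Cnp was 12.82 ± 0.22 at week 10 and 13.29 ± 0.40 at week 2, a difference of -0.50 ± 0.20 (adjusted p 0.0839), Mag was 9.87 ± 0.13 at week 10 and 10.37 ± 0.33 at week 2, a difference of -0.49 ± 0.21 (adjusted p 0.113), Mog was 8.13 ± 0.18 at week 10 and 8.47 ± 0.64 at week 2, a difference of -0.40 ± 0.30 (adjusted p 0.396) and Mobp was 11.67 ± 0.21 at week 10 and 11.04 ± 0.60 at week 2, a difference of 0.57 ± 0.32 (adjusted p 0.234). In batch 1 alone 3 of them were called lower: Cnp changed by -0.69 (adjusted p 0.00285), Mag by -0.68 (adjusted p 0.00934) and Mog by -0.72 (adjusted p 0.0259). Ugt8a, which makes galactosylceramide, read 9.39, 8.73, 8.83 and 8.91 at week 10, against a lowest, median and highest value of 10.11, 10.53 and 11.14 at week 2. Ugt8a fell by 1.49 ± 0.27 (2.8-fold, adjusted p 0.00067). Gal3st1, which turns it into sulphatide, fell by 0.57 ± 0.10 (1.49-fold, adjusted p 0.000353), while Fa2h, which hydroxylates the fatty acids of both, was 8.68 ± 0.15 at week 10 and 8.75 ± 0.37 at week 2, a difference of -0.05 ± 0.21 (adjusted p 0.897). Sirt2, a deacetylase abundant in myelin, read 10.12, 10.18, 10.08 and 10.01 in the 4 week 10 animals, against 11.01 to 11.50 with a median of 11.35 in the 6 week 2 animals. Sirt2 fell by 1.17 ± 0.11 (2.25-fold, adjusted p 4.71e-07). The lower genes Gsn and Adamts4 fell by 0.82 ± 0.25 and 0.61 ± 0.17, but Gsn lost its call without any 1 of 7 arrays and Adamts4 without week 10 animal 7 or 8.

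The 11 higher genes of the list include Ndrg1 and Aspa. Not every other rising gene named in this paragraph is a member of that list. Ndrg1 read 9.84, 9.32, 9.54 and 9.21 in the 4 week 10 animals, against 6.49 to 7.73 with a median of 7.46 in the 6 week 2 animals. Ndrg1 rose by 2.09 ± 0.21 (4.27-fold, adjusted p 7.05e-07). Aspa, whose enzyme splits N-acetylaspartate, read 7.85, 7.86, 7.54 and 7.54 at week 10, against a lowest, median and highest value of 5.08, 6.05 and 6.78 at week 2. Aspa rose by 1.56 ± 0.27 (2.95-fold, adjusted p 0.00038). The 2 batch 2 animals were the lowest of week 2 in Aspa, Plekhb1 and Efhd1, and in batch 1 alone the changes were 1.34 (adjusted p 0.000432), 1.37 (adjusted p 1.72e-05) and 1.20 (adjusted p 3.28e-05). Plekhb1 rose by 1.63 ± 0.24 (3.08-fold, adjusted p 7.47e-05) and Efhd1 rose by 1.44 ± 0.22 (2.71-fold, adjusted p 0.000133). Qdpr, a pteridine reductase, read 13.09, 12.67, 12.75 and 12.64 in the 4 week 10 animals, against 11.24 to 11.72 with a median of 11.51 in the 6 week 2 animals. Qdpr rose by 1.27 ± 0.10 (2.41-fold, adjusted p 3.74e-08). Aspa, Plekhb1 and Efhd1 were highest of week 10 in animals 1 and 6, whose striatal list means were the highest (8.85 and 8.62). In Ndrg1 and Qdpr animal 7 was above animal 6. The list mean was 9.26, 9.26, 9.10 and 9.01 in week 10 animals 1, 6, 7 and 8, against 8.50 to 9.23 at week 2. The part of dissection in the myelin values was not tested. Car2, a carbonic anhydrase of oligodendrocytes, rose by 0.96 ± 0.12 (1.94-fold, adjusted p 8.46e-06), and Hapln2, the link protein of nodes of Ranvier, rose by 1.13 ± 0.20 (2.19-fold, adjusted p 0.000399). Cryab, Apod and Septin4 rose by 1.01 ± 0.22, 0.92 ± 0.23 and 0.94 ± 0.14. Evi2a rose by 1.22 ± 0.26 (2.34-fold, adjusted p 0.00245). Anln, whose product scaffolds septins in myelin, lay near the filter and rose by 1.22 ± 0.40 (2.32-fold, adjusted p 0.0408), a call lost without week 10 animal 1 or 7 or week 2 animal 1.

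**Figure D4:**
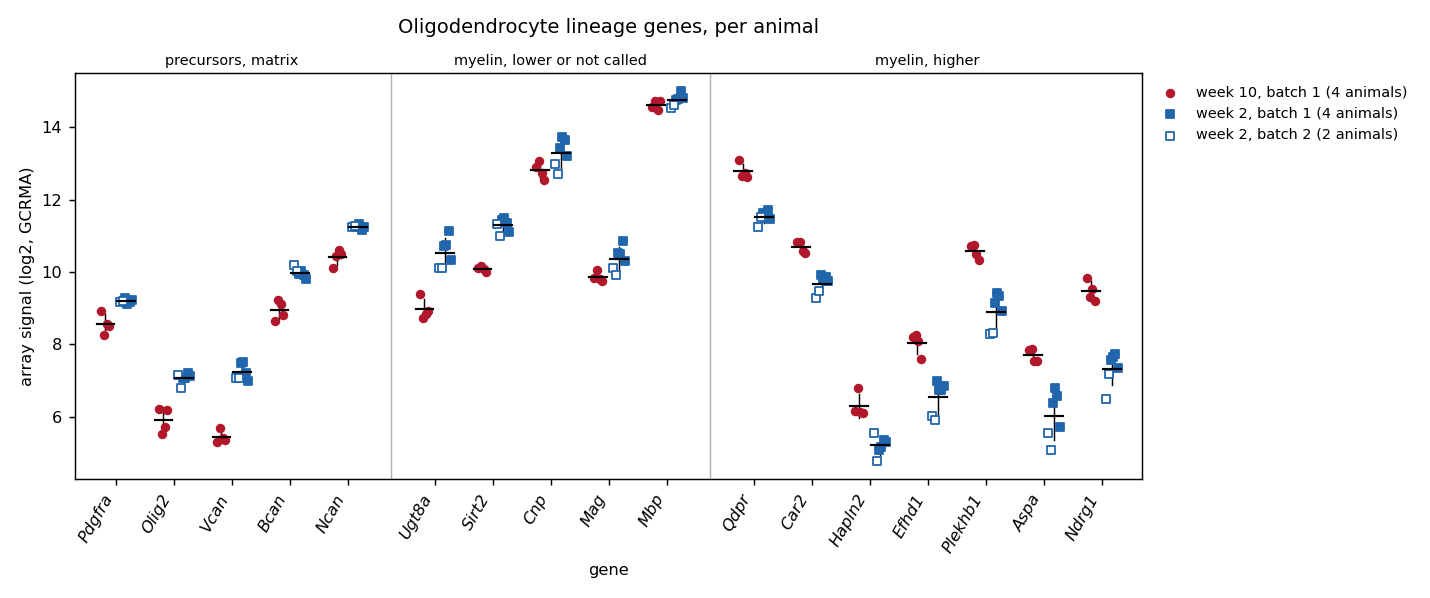
Log2 signal of oligodendrocyte lineage genes in each animal, week 10 as red circles left of week 2 as blue squares (open for batch 2), with means and ± 1 SD. Precursor genes and Ugt8a and Sirt2 were lower, Cnp, Mag and Mbp did not pass the test in the fit of all arrays (Cnp and Mag were called lower in batch 1 alone), and the 7 genes on the right were higher at week 10.

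Astrocyte genes went both ways. Of 36 measured 6 were higher and 10 lower (16.7% and 27.8%), and under the scan-day effect 6 and 6. Il33 had the largest called rise of the genes tested. It read 7.88, 7.80, 8.06 and 7.88 in the 4 week 10 animals, against 5.22 to 5.85 with a median of 5.76 in the 6 week 2 animals. The ages did not overlap, and Il33 rose by 2.31 ± 0.16 (4.96-fold, adjusted p 8.15e-09). Gstm1, a glutathione transferase, read 10.49, 10.34, 10.23 and 10.30 at week 10, against a lowest, median and highest value of 8.75, 9.10 and 9.49 at week 2. Gstm1 rose by 1.20 ± 0.12 (2.3-fold, adjusted p 4.71e-07). The secreted chaperone gene Clu, Ndrg2 and Aldoc rose by 0.47 ± 0.12, 0.47 ± 0.11 and 0.46 ± 0.09. On the other side, Fabp7, a fatty acid binding protein of radial glia and young astrocytes, read 9.27, 9.68, 9.53 and 8.90 in the 4 week 10 animals, against 10.72 to 11.62 with a median of 11.07 in the 6 week 2 animals. Fabp7 fell by 1.63 ± 0.23 (3.1-fold, adjusted p 5.45e-05). Gfap, the astrocyte filament, read 8.68, 8.77, 8.37 and 8.38 at week 10, against a lowest, median and highest value of 9.15, 9.72 and 9.86 at week 2. Gfap fell by 0.88 ± 0.18 (1.83-fold, adjusted p 0.00149). Dio2 and Slco1c1, which activate and import thyroid hormone, fell by 1.08 ± 0.17 (2.11-fold, adjusted p 0.000157) and 0.69 ± 0.10 (1.61-fold, adjusted p 8.12e-05). Aldh1l1, used as a mark of all astrocytes, fell by 0.34 ± 0.09 (1.26-fold, adjusted p 0.0116). Other defining markers were not called: the connexin gene Gja1 was 12.07 ± 0.18 at week 10 and 12.04 ± 0.11 at week 2, a difference of 0.01 ± 0.10 (adjusted p 0.969), Aqp4 was 9.31 ± 0.18 at week 10 and 9.57 ± 0.07 at week 2, a difference of -0.27 ± 0.12 (adjusted p 0.133) and the glutamate transporter gene Slc1a3 was 10.38 ± 0.22 at week 10 and 10.54 ± 0.25 at week 2, a difference of -0.26 ± 0.12 (adjusted p 0.143). The list mean was 9.59 to 9.73 at week 10 and 9.71 to 9.92 at week 2.

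Microglial genes were few and mixed, with 2 of 21 higher and 4 lower (9.52% and 19%). Ctss, for the lysosomal protease cathepsin S, read 10.41, 10.21, 10.29 and 10.16 in the 4 week 10 animals, against 9.08 to 9.78 with a median of 9.64 in the 6 week 2 animals. Ctss rose by 0.66 ± 0.11 (1.58-fold, adjusted p 0.000393), and Aif1, for Iba1, rose by 0.36 ± 0.09 (1.29-fold, adjusted p 0.00785). P2ry12 and Tmem119, both marks of resident microglia, fell by 0.75 ± 0.13 (1.69-fold, adjusted p 0.000284) and 0.80 ± 0.19 (1.75-fold, adjusted p 0.00511). Mrc1, of macrophages around vessels and in the meninges, fell by 1.17 ± 0.29 (2.26-fold, adjusted p 0.00692). The defining markers Csf1r, Cx3cr1 and C1qa were not called, with changes of 0.11 ± 0.11, 0.00 ± 0.17 and 0.16 ± 0.11.

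Class I antigen presentation and interferon genes had rises and no falls: 5 of 16 measured were higher (31.2%, against 7.12% of all genes) and 0 lower, with a median of 0.18. Batch 1 alone gave 4 higher and the scan-day effect 1. Interferon induces many of these genes through sites that bind interferon regulatory factors and Stat complexes, and class I molecules on neurons are known for a part in trimming synapses. A match to GAAA, any 2 bases and GAAA, on either strand, was sought in the 300 bases around each start (RefSeq, GRCm38.p6). It was found in 8 of the 16 members, 2 of them called (Ifit3 and B2m), and in 3.69% of the 7427 tested genes that had a promoter sequence. Ifit3, B2m and Rsad2 are printed to show it in 2 genes that rose and in 1 that was not called; the matches are in capitals and each stretch ends just before the annotated start.
Ifit3, chr19:34583359-34583528, plus strand: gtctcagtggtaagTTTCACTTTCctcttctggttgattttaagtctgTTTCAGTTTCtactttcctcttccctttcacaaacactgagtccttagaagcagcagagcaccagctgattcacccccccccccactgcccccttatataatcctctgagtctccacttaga
B2m, chr2:122147517-122147686, plus strand: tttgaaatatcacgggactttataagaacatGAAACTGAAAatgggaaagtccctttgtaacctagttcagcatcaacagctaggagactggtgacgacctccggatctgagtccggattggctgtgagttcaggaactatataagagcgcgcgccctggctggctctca
Rsad2, chr12:26456453-26456622, minus strand: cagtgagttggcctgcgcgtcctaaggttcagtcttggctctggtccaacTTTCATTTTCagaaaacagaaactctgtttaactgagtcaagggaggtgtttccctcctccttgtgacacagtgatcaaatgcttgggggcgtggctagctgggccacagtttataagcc

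Ifit3, whose stretch holds 2 matches on the opposite strand, read 7.09, 6.75, 7.44 and 6.25 in the 4 week 10 animals, against 5.34 to 5.85 with a median of 5.55 in the 6 week 2 animals. It rose by 1.32 ± 0.18 (2.5-fold, adjusted p 2.73e-05), and the lowest week 10 animal was above the highest week 2 animal. B2m, the light chain of class I molecules, with 1 match, rose by 0.42 ± 0.12 (1.34-fold, adjusted p 0.0218), a call lost without week 10 animal 6, 7 or 8 and in batch 1 alone, where the change was 0.37 (adjusted p 0.0583). Rsad2, an antiviral gene with 1 match, read 5.60, 5.72, 5.48 and 5.61 at week 10, against a lowest, median and highest value of 5.34, 5.58 and 5.73 at week 2 and was not called (-0.03 ± 0.14). Irf1, an interferon regulatory factor, read 7.47, 7.08, 7.50 and 7.0 at week 10, against a lowest, median and highest value of 6.24, 6.61 and 6.96 at week 2. Irf1 rose by 0.63 ± 0.14 (1.55-fold, adjusted p 0.00262), and the class I heavy chain gene H2-D1 rose by 0.40 ± 0.10 (1.32-fold, adjusted p 0.00883). Its partner H2-K1 was 7.72 ± 0.23 at week 10 and 7.47 ± 0.13 at week 2, a difference of 0.31 ± 0.12 (adjusted p 0.0917). Neither Irf1 nor H2-D1 held a match in its window, which says only that these letters are absent there. The remaining call was Tapbp, the tapasin that loads peptides, which rose by 0.33 ± 0.09 (1.26-fold, adjusted p 0.0189) and lost its call without week 10 animal 1.

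Inhibitory neuron genes were mostly not called: 2 of 18 were higher and 1 lower (11.1% and 5.56%). Pvalb, for the calcium buffer of fast-spiking interneurons, read 8.34, 8.43, 8.73 and 8.95 in the 4 week 10 animals, against 5.56 to 7.98 with a median of 7.48 in the 6 week 2 animals. The 2 batch 2 animals were the lowest of week 2, and Pvalb rose by 1.27 ± 0.28 (2.41-fold, adjusted p 0.00384). In batch 1 alone its change was 0.97 (adjusted p 0.000439). Gad1, which makes GABA, read 12.68, 12.83, 12.59 and 12.35 at week 10, against a lowest, median and highest value of 11.56, 12.03 and 12.23 at week 2. Gad1 rose by 0.63 ± 0.16 (1.54-fold, adjusted p 0.0105). The striatum is rich in Gad1 as well. The 4 week 10 animals had striatal list means of 8.85, 8.62, 7.17 and 7.32, and the first 2 of them were also the highest in Gad1. The part of striatal tissue in the Gad1 values was not tested. Gad1 was not called when all its probe sets were averaged. Its relative Gad2 was 6.95 ± 0.76 at week 10 and 7.01 ± 0.25 at week 2, a difference of 0.01 ± 0.35 (adjusted p 0.989). The peptide genes Sst and Vip were 10.69 ± 0.12 at week 10 and 10.63 ± 0.07 at week 2, a difference of 0.09 ± 0.07 (adjusted p 0.446), and 9.41 ± 0.37 at week 10 and 9.07 ± 0.28 at week 2, a difference of 0.25 ± 0.18 (adjusted p 0.385). Reln, for the secreted protein of Cajal-Retzius cells and some interneurons, fell by 0.53 ± 0.09 (1.45-fold, adjusted p 0.000211).

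**Figure D5:**
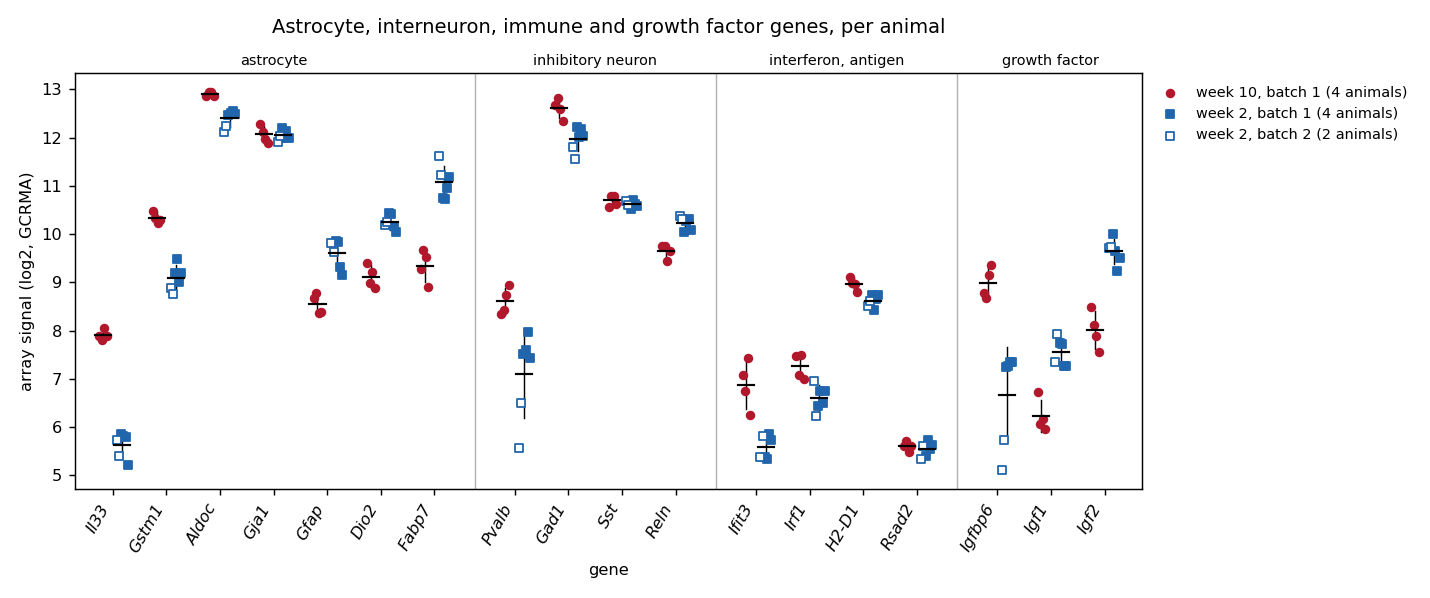
Log2 signal of astrocyte, interneuron, immune and growth factor genes in each animal, week 10 as red circles left of week 2 as blue squares (open for batch 2), with means and ± 1 SD. Il33 was 7.80 to 8.06 at week 10 and 5.22 to 5.85 at week 2; Gja1, Sst and Rsad2 overlapped.

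Of 36 synaptic vesicle genes 4 were higher and 3 lower (11.1% and 8.33%), near the shares of all genes, and under the scan-day effect 2 and 2. The lower count was 6 without week 10 animal 7 and 5 without week 10 animal 8. Vamp1, the synaptobrevin of fast-spiking and projection axons, read 9.70, 9.67, 9.89 and 9.84 in the 4 week 10 animals, against 8.40 to 9.43 with a median of 8.80 in the 6 week 2 animals. Vamp1 rose by 0.85 ± 0.14 (1.81-fold, adjusted p 0.000259). Syt2, its fast calcium sensor, read 6.55, 7.04, 6.24 and 6.36 at week 10, against a lowest, median and highest value of 5.72, 5.93 and 6.15 at week 2. Syt2 rose by 0.66 ± 0.16 (1.58-fold, adjusted p 0.00735). Snap25, a partner of both in the fusion complex, rose by 0.55 ± 0.11 (1.47-fold, adjusted p 0.000924), and Napb, which takes the complex apart, rose by 0.38 ± 0.10 (1.3-fold, adjusted p 0.0098). Syngr3 and Rab3b, vesicle membrane and vesicle traffic genes, fell by 0.46 ± 0.07 and 0.50 ± 0.11. The paralogue Vamp2 was 12.14 ± 0.28 at week 10 and 12.60 ± 0.17 at week 2, a difference of -0.34 ± 0.13 (adjusted p 0.0749) and Syt1 was 11.70 ± 0.77 at week 10 and 11.99 ± 0.39 at week 2, a difference of -0.27 ± 0.38 (adjusted p 0.671). Syp and Syn1, common marks of synapses, changed by -0.32 ± 0.15 and -0.12 ± 0.11 without passing the test.

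On the postsynaptic side 0 of 22 genes were higher and 6 lower (27.3%). Under the scan-day effect 0 were called, and without week 10 animal 6, 3 were lower. Dlg4, for the scaffold PSD-95, read 6.85, 8.63, 8.33 and 8.61 in the 4 week 10 animals, against 9.21 to 10.08 with a median of 9.61 in the 6 week 2 animals. Week 10 animal 1 was the lowest, and Dlg4 fell by 1.27 ± 0.32 (2.41-fold, adjusted p 0.00966). Icam5 and Lrrtm1, adhesion molecules of dendrites and excitatory synapses, fell by 0.53 ± 0.12 (1.45-fold, adjusted p 0.00359) and 0.56 ± 0.13 (1.47-fold, adjusted p 0.0043). Nrgn, a calmodulin binding protein gene of spines, fell by 0.46 ± 0.13 (1.38-fold, adjusted p 0.02), a call lost without week 10 animal 1 or 6. Camk2b and Camk2g changed by -0.25 ± 0.12 and 0.10 ± 0.10 without passing the test.

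Few receptor genes were called. Of 12 ionotropic glutamate receptor genes 0 were higher and 3 lower (25%), and each of Grik5, Cacng3 and Grik1 lost its call in some leave-one-out fits, so that 1 was left without week 10 animal 1, 6 or 8 or week 2 animal 6. The abundant AMPA receptor subunits Gria1 and Gria2 were 11.12 ± 0.13 at week 10 and 11.16 ± 0.15 at week 2, a difference of -0.01 ± 0.11 (adjusted p 0.94), and 12.05 ± 0.16 at week 10 and 12.15 ± 0.25 at week 2, a difference of 0.01 ± 0.11 (adjusted p 0.943). None of 7 measured GABA receptor genes was called by limma, and 0 had an unadjusted p under 0.05. Gabbr1 and Gabrb1, the brightest of them, changed by -0.06 ± 0.08 and 0.01 ± 0.15. Of 12 glycine, serotonin, dopamine and acetylcholine genes 1 was called: Maoa, which breaks down serotonin and noradrenaline, fell by 0.50 ± 0.12 (1.42-fold, adjusted p 0.00665).

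Channel genes had few calls. Of 31 potassium channel genes 3 were higher and 1 lower (9.68% and 3.23%). Kcnab2 and Kcnab3, auxiliary subunits of axonal Kv1 channels, rose by 0.62 ± 0.12 (1.53-fold, adjusted p 0.00133) and 0.70 ± 0.14 (1.62-fold, adjusted p 0.00184). Their relative Kcnab1 was 9.69 ± 0.56 at week 10 and 9.01 ± 0.48 at week 2, a difference of 0.70 ± 0.29 (adjusted p 0.103), and the Kv1 pore genes Kcna1 and Kcna2 changed by 0.60 ± 0.27 and 0.56 ± 0.30 without passing the test. In batch 1 alone Kcna1 was called, at 0.71 (adjusted p 0.00355). Kcnip1, an auxiliary subunit of Kv4 channels, fell by 0.60 ± 0.10 (1.51-fold, adjusted p 0.000392). Of 15 sodium and calcium channel genes, Scn1a, the sodium channel of interneuron axons, read 10.19, 10.34, 10.43 and 10.68 in the 4 week 10 animals, against 9.46 to 9.91 with a median of 9.76 in the 6 week 2 animals. Scn1a rose by 0.60 ± 0.09 (1.52-fold, adjusted p 6.34e-05). Scn1a was not called when all its probe sets were averaged. Its relatives Scn2a and Scn8a were 10.38 ± 0.22 at week 10 and 10.88 ± 0.76 at week 2, a difference of -0.14 ± 0.24 (adjusted p 0.722), and 10.92 ± 0.29 at week 10 and 10.96 ± 0.12 at week 2, a difference of 0.00 ± 0.13 (adjusted p 0.999).

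Pumps and chloride carriers were 1 of 14 higher and 4 lower (7.14% and 28.6%). Fxyd7, a regulator of the sodium pump, read 8.22, 8.75, 9.66 and 9.63 at week 10, against a lowest, median and highest value of 10.18, 10.51 and 10.78 at week 2. Fxyd7 fell by 1.34 ± 0.23 (2.54-fold, adjusted p 0.000372). Week 10 animals 1 and 6, the lowest in Fxyd7, had the highest striatal list means of their age (8.85 and 8.62). The part of dissection in the Fxyd7 values was not tested. Its relative Fxyd6 fell by 0.82 ± 0.15 (1.76-fold, adjusted p 0.000756). The chloride exporter gene Slc12a5, for KCC2, whose rise makes GABA inhibitory, rose by 0.24 ± 0.07 (1.18-fold, adjusted p 0.0222). That call was lost without week 10 animal 7 or 8 and in batch 1 alone, and the mean of all its probe sets gave the opposite sign. The chloride importer gene Slc12a2 was 9.58 ± 0.16 at week 10 and 9.62 ± 0.22 at week 2, a difference of -0.04 ± 0.15 (adjusted p 0.89).

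Signalling genes for calcium and cyclic nucleotides had 5 of 33 higher and 3 lower (15.2% and 9.09%). Pde8a, a cyclic AMP phosphodiesterase, read 6.93, 6.61, 6.29 and 6.17 in the 4 week 10 animals, against 4.0 to 5.70 with a median of 5.09 in the 6 week 2 animals. Pde8a rose by 1.47 ± 0.29 (2.77-fold, adjusted p 0.00123). Its change was 1.16 (adjusted p 0.000212) in batch 1 alone. Rasgrf1, a calcium-activated exchange factor and an imprinted gene, rose by 0.49 ± 0.12 (1.41-fold, adjusted p 0.00825), and Ryr2, a calcium release channel, rose by 0.50 ± 0.13 (1.42-fold, adjusted p 0.00993). Rgs4, which shortens G protein signals, fell by 0.38 ± 0.08 (1.3-fold, adjusted p 0.00218). None of 16 immediate early genes was called by limma, 1 had an unadjusted p under 0.05, and their median change was 0.14. Fos, Egr1 and Arc changed by 0.16 ± 0.33, 0.15 ± 0.24 and 0.38 ± 0.57, and none passed the test.

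Most genes called in the insulin-like growth factor axis were lower. Of 14 measured genes 1 was higher and 8 lower (7.14% and 57.1%), with a median of -0.44. The ligand gene Igf1 read 6.72, 6.06, 6.16 and 5.97 in the 4 week 10 animals, against 7.26 to 7.94 with a median of 7.53 in the 6 week 2 animals. Igf1 fell by 1.28 ± 0.19 (2.43-fold, adjusted p 6.94e-05). Igf2, which in adult brain comes largely from meninges and vessels, read 8.48, 8.12, 7.89 and 7.56 at week 10, against a lowest, median and highest value of 9.23, 9.69 and 10.01 at week 2. Igf2 fell by 1.64 ± 0.17 (3.11-fold, adjusted p 7.08e-07). The binding protein genes Igfbp3, Igfbp7 and Igfbp4 fell by 1.12 ± 0.21, 0.72 ± 0.11 and 0.46 ± 0.12, the last a call lost without week 10 animal 1. Irs1, the docking protein of the receptor, fell by 0.56 ± 0.08 (1.47-fold, adjusted p 5.05e-05), and the receptor gene Igf1r was 7.59 ± 0.18 at week 10 and 7.63 ± 0.44 at week 2, a difference of 0.19 ± 0.19 (adjusted p 0.537). Igfbp6 went the other way: it read 8.77, 8.67, 9.16 and 9.35 in the 4 week 10 animals, against 5.11 to 7.35 with a median of 7.25 in the 6 week 2 animals. The 2 batch 2 animals were the lowest of week 2, at 5.11 and 5.73. Igfbp6 rose by 1.96 ± 0.25 (3.89-fold, adjusted p 1.83e-05), and its change was 1.69 (adjusted p 3.89e-07) in batch 1 alone. Of 21 neurotrophin and growth factor genes 1 was higher and 4 lower (4.76% and 19%). The lower count was 1 without week 10 animal 1, 2 without week 10 animal 6 and 0 under the scan-day effect, and the higher count was 0 without week 10 animal 8. Of these, Ntrk3, a neurotrophin receptor gene, fell by 0.52 ± 0.14 (1.44-fold, adjusted p 0.0134), and Fgf1 rose by 0.49 ± 0.14 (1.41-fold, adjusted p 0.0201). The call of Ntrk3 was lost without week 10 animal 1, and that of Fgf1 without week 10 animal 1 or 8. Bdnf and its receptor gene Ntrk2 changed by 0.04 ± 0.08 and 0.03 ± 0.10 without passing the test.

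Imprinted genes, expressed from 1 parental copy and many of them active in growth, had 1 of 22 higher and 4 lower (4.55% and 18.2%). Mkrn3, known in humans for holding back puberty, read 3.14, 3.10, 3.0 and 3.16 in the 4 week 10 animals, against 3.96 to 6.17 with a median of 5.70 in the 6 week 2 animals. All week 10 values were under the filter level and the week 2 animals ranged over 2 units, and Mkrn3 fell by 2.14 ± 0.27 (4.42-fold, adjusted p 1.26e-05). Nnat, for the membrane protein neuronatin, fell by 1.01 ± 0.22 (2.01-fold, adjusted p 0.00262). The abundant Ndn, Meg3 and Peg3 changed by 0.01 ± 0.08, 0.03 ± 0.20 and 0.13 ± 0.11 without passing the test.

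Of 30 SoxC, Id, Hes and neurogenic factor genes 0 were higher and 3 lower (10%), a share near the 11.4% of all genes. Sox4, a SoxC factor of newborn neurons, read 9.03, 8.79, 8.97 and 8.65 in the 4 week 10 animals, against 9.82 to 10.41 with a median of 10.11 in the 6 week 2 animals. Sox4 fell by 1.17 ± 0.09 (2.24-fold, adjusted p 2.25e-08). Its relative Sox11 was near the filter and fell by 0.44 ± 0.13 (1.36-fold, adjusted p 0.0231), a call lost without week 10 animal 6. The only other call of the 30 measured was Id3, an inhibitor of differentiation, which fell by 0.58 ± 0.17 (1.49-fold, adjusted p 0.0206) and lost its call without week 10 animal 8 or week 2 animal 4. Deaf1, a transcription factor gene, read 6.65, 7.09, 7.51 and 7.28 in the 4 week 10 animals, against 9.02 to 9.72 with a median of 9.33 in the 6 week 2 animals. Deaf1 fell by 2.13 ± 0.18 (4.37-fold, adjusted p 6.26e-08). Of 23 cortical layer genes 1 was higher and 5 lower (4.35% and 21.7%). Crym, a thyroid hormone binding protein of deep layers, fell by 0.73 ± 0.09 (1.66-fold, adjusted p 1.26e-05), Cux1, of upper layers, fell by 0.41 ± 0.10 (1.33-fold, adjusted p 0.00497), and Nr4a2, of the subplate and claustrum, rose by 0.55 ± 0.14 (1.46-fold, adjusted p 0.00896). The layer 6 factor gene Tbr1 was 9.40 ± 0.39 at week 10 and 9.06 ± 0.35 at week 2, a difference of 0.25 ± 0.17 (adjusted p 0.343).

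Of 29 chromatin regulator and HMG protein genes 3 were higher and 5 lower (10.3% and 17.2%), and of 8 DNA methylation genes 2 were higher and 1 lower (25% and 12.5%). Without week 2 animal 4 the lower count of the chromatin genes was 3. The 2 higher were Mbd2, which binds methylated DNA, and Gadd45a, which is linked to its removal, and they rose by 0.40 ± 0.12 (1.32-fold, adjusted p 0.0238) and 0.62 ± 0.19 (1.54-fold, adjusted p 0.0278). Mbd2 lost its call without week 10 animal 1 or week 2 animal 4 and in batch 1 alone, at 0.34 (adjusted p 0.0656), and Gadd45a lost its call without week 10 animal 6, 7 or 8. Dnmt3a, which sets DNA methylation in neurons after birth, read 8.31, 7.70, 8.31 and 8.38 in the 4 week 10 animals, against 10.04 to 10.53 with a median of 10.27 in the 6 week 2 animals. The ages were more than 1 unit apart at their nearest animals, and Dnmt3a fell by 2.03 ± 0.13 (4.08-fold, adjusted p 1.97e-09). The maintenance enzyme gene Dnmt1 was 8.77 ± 0.21 at week 10 and 8.97 ± 0.12 at week 2, a difference of -0.17 ± 0.11 (adjusted p 0.3). Of the catalytic subunits of the Polycomb complex PRC2, Ezh1 read 7.37, 7.35, 7.66 and 7.90 at week 10, against a lowest, median and highest value of 6.77, 6.82 and 6.96 at week 2. Ezh1 rose by 0.78 ± 0.14 (1.71-fold, adjusted p 0.000459), while Ezh2 fell by 0.67 ± 0.19 (1.59-fold, adjusted p 0.0186), a call lost without week 2 animal 4 and in 4 of the other fits, that of the scan-day effect among them. Their partner subunits Eed and Suz12 changed by 0.15 ± 0.11 and 0.20 ± 0.13 without passing the test. Of the SWI/SNF ATPases, Smarca2 rose by 0.45 ± 0.11 (1.37-fold, adjusted p 0.00776) and Smarca4 fell by 0.37 ± 0.09 (1.29-fold, adjusted p 0.0061). Both calls were lost under the scan-day effect and when all probe sets of a gene were averaged, and that of Smarca2 also with the 10 arrays alone. The HMG protein genes Hmgb2 and Hmgb3 fell by 0.53 ± 0.12 and 0.72 ± 0.12, and the deacetylase gene Hdac11 rose by 0.35 ± 0.09 (1.27-fold, adjusted p 0.0109).

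Proliferation genes had 1 of 30 higher and 6 lower (3.33% and 20.0%), against 7.12% and 11.4% of all genes. Under the scan-day effect 1 was lower, and without week 10 animal 6, 3 were. The listed genes Mki67, Top2a, Cdk1, Ccnb2, Birc5 and Aurka were among those that did not pass the filter and were not tested. Rrm2, the ribonucleotide reductase subunit made by dividing cells, read 5.10, 4.16, 4.70 and 4.38 in the 4 week 10 animals, against 6.09 to 6.83 with a median of 6.64 in the 6 week 2 animals. Rrm2 fell by 1.93 ± 0.21 (3.82-fold, adjusted p 1.47e-06). Cdk4 fell by 0.47 ± 0.10 (1.38-fold, adjusted p 0.0031), Ccng1 rose by 0.59 ± 0.14 (1.5-fold, adjusted p 0.00461) and Pcna was 9.85 ± 0.09 at week 10 and 9.91 ± 0.11 at week 2, a difference of -0.05 ± 0.08 (adjusted p 0.695). Of 40 splicing genes 5 were higher and 1 lower (12.5% and 2.5%), and leaving out week 10 animal 1 gave 1 higher. Snrpa1, a U2 small nuclear ribonucleoprotein subunit gene, rose by 0.40 ± 0.10 (1.32-fold, adjusted p 0.0103). Translation genes had 4 of 23 higher and 3 lower (17.4% and 13%). Pabpc1, the poly(A) binding protein, fell by 0.77 ± 0.07 (1.71-fold, adjusted p 3.94e-07), and Rplp0 fell by 0.71 ± 0.09 (1.63-fold, adjusted p 2.24e-05). The ribosomal protein genes Rpl37 and Rps24 rose by 0.61 ± 0.09 (1.53-fold, adjusted p 0.000107) and 0.41 ± 0.09 (1.33-fold, adjusted p 0.00212). Ribosomal protein genes have many processed pseudogenes, which the probe sets may not tell apart.

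Detoxification genes had 5 of 29 higher and 1 lower (17.2% and 3.45%). Besides Gstm1, Ephx1, an epoxide hydrolase, rose by 0.76 ± 0.15 (1.69-fold, adjusted p 0.00169), Aldh2, a mitochondrial aldehyde dehydrogenase, rose by 0.51 ± 0.10 (1.43-fold, adjusted p 0.000881), and Gstp1 rose by 0.48 ± 0.07 (1.39-fold, adjusted p 3.73e-05). Txn1, for thioredoxin, fell by 0.52 ± 0.09 (1.43-fold, adjusted p 0.000224). Of 28 ubiquitin and proteasome genes 3 were higher and 0 lower (10.7%). Fbxo2, the neuronal F-box protein that binds glycoproteins, read 8.51, 9.18, 9.14 and 8.96 in the 4 week 10 animals, against 7.55 to 8.15 with a median of 7.90 in the 6 week 2 animals. Fbxo2 rose by 1.04 ± 0.16 (2.05-fold, adjusted p 0.00015). Psmc5, an ATPase of the proteasome cap, rose by 0.46 ± 0.09 (1.38-fold, adjusted p 0.000779). The heat shock gene Hspa1b rose by 0.75 ± 0.12 (1.68-fold, adjusted p 0.000186) and the endoplasmic reticulum chaperone gene Calr fell by 0.48 ± 0.13 (1.39-fold, adjusted p 0.0114), among 27 chaperone genes of which 2 were higher and 3 lower (7.41% and 11.1%).

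Clock and glucocorticoid genes had 4 of 25 higher and 2 lower (16.0% and 8.0%). The hour of day at which animals were killed is not given in the sources used here. Dbp, a PAR bZip factor that cycles strongly, read 10.93, 11, 10.78 and 10.66 in the 4 week 10 animals, against 9.11 to 10.22 with a median of 9.69 in the 6 week 2 animals. Dbp rose by 0.98 ± 0.24 (1.98-fold, adjusted p 0.00769). Bhlhe40 read 9.62, 9.49, 10.45 and 10.47 at week 10, against a lowest, median and highest value of 8.59, 9.28 and 9.47 at week 2. Bhlhe40 rose by 0.89 ± 0.22 (1.85-fold, adjusted p 0.00886), and Nr1d2 rose by 0.44 ± 0.12 (1.35-fold, adjusted p 0.012). Week 10 animals 1 and 6, highest of their age in striatal genes, were the lowest of it in Bhlhe40, and the part of dissection was not tested. The core clock genes Per1 and Clock were 8.41 ± 0.36 at week 10 and 8.63 ± 0.10 at week 2, a difference of 0.00 ± 0.28 (adjusted p 0.999), and 7.93 ± 0.15 at week 10 and 7.93 ± 0.13 at week 2, a difference of 0.05 ± 0.13 (adjusted p 0.832). Hsd11b1, which regenerates glucocorticoid inside cells, fell by 0.56 ± 0.10 (1.47-fold, adjusted p 0.000483). The glucocorticoid target gene Fkbp5 and the receptor gene Nr3c1 changed by 0.00 ± 0.18 and 0.16 ± 0.11 without passing the test. The E-box CACGTG stood in the promoter window of 5 of 20 members with a sequence, none of them called, and in 11.9% of tested genes. The D-box TTANNTAA stood in 2 of the 20, neither called, and in 4.5% of tested genes.

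Several large changes fell outside these lists. Neat1, the long noncoding RNA of paraspeckles, read 10.02, 9.87, 9.86 and 9.69 in the 4 week 10 animals, against 7.71 to 8.35 with a median of 7.96 in the 6 week 2 animals. Neat1 rose by 1.93 ± 0.13 (3.82-fold, adjusted p 3.23e-09). Aktip rose 2.24-fold (adjusted p 2.12e-07), and the tyrosine kinase gene Tnk2 rose 2.17-fold (adjusted p 1.73e-07). Cpeb1, which governs cytoplasmic polyadenylation at synapses, read 8.09, 8.35, 9.16 and 9.07 at week 10, against a lowest, median and highest value of 7.24, 7.49 and 7.64 at week 2. Cpeb1 rose by 1.23 ± 0.20 (2.34-fold, adjusted p 0.000231). Week 10 animals 1 and 6, highest of their age in striatal genes, were the lowest of it in Cpeb1, and the part of dissection was not tested. Adssl1, an adenylosuccinate synthase, rose by 1.61 ± 0.27 (3.06-fold, adjusted p 0.000263), with the batch 2 animals lowest and a change of 1.34 (adjusted p 3.61e-05) in batch 1 alone. Crebrf rose 2.57-fold (adjusted p 2.33e-05), Resp18 rose 2.19-fold (adjusted p 3.41e-05), Stard10 rose 2.15-fold (adjusted p 4.56e-05), Plaat3 rose 2.17-fold (adjusted p 0.00528) and 2010204K13Rik rose 2.28-fold (adjusted p 0.0032). In the other direction Tmem229b read 6.33, 6.49, 6.34 and 6.14 at week 10, against a lowest, median and highest value of 8.0, 8.28 and 8.91 at week 2. Tmem229b fell by 1.89 ± 0.13 (3.7-fold, adjusted p 8.15e-09). Cxadr, for a junctional adhesion protein that also admits adenovirus, fell by 1.99 ± 0.32 (3.97-fold, adjusted p 0.000177), Dcakd fell 3.3-fold (adjusted p 2.08e-07) and Fam107b fell 3.1-fold (adjusted p 1.77e-05). Tent5c, for a poly(A) polymerase, fell by 1.81 ± 0.36 (3.5-fold, adjusted p 0.00152), with a week 10 mean of 3.59 below the filter level.

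Probe sets of 1 gene can see different transcript ends. Of 3584 genes with several tested probe sets, 352 had several called in the same direction and 11 had some called higher and some lower: Abcf1, Ddx39b, Huwe1, Masp1, Mtdh, Mycn, Stau2, Tardbp, Timm10b, Ube2d3 and Uqcr10. In Tardbp, for the RNA binding protein TDP-43, 1 probe set was 8.63 ± 0.21 at week 10 and 7.99 ± 0.22 at week 2 (change 0.59 ± 0.14, adjusted p 0.0049). Another was 8.93 ± 0.09 at week 10 and 9.20 ± 0.08 at week 2 (change -0.23 ± 0.08, adjusted p 0.0414), a call lost without any 1 of week 10 animals 6, 7 and 8 or week 2 animals 3, 4 and 5. In Stau2, for a protein of dendritic RNA granules, 1 probe set was 9.32 ± 0.18 at week 10 and 8.80 ± 0.26 at week 2 (change 0.50 ± 0.12, adjusted p 0.00745), and a second was 9.10 ± 0.15 at week 10 and 9.35 ± 0.18 at week 2 (change -0.36 ± 0.12, adjusted p 0.0466).

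The share of genes called differed with signal. Of genes with a mean under log2 6, 4.29% were higher and 3.54% lower, and between 10 and 12 the shares were 11.4% and 16.0%. At 12 and over they were 10.8% and 15.0%.

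Some of the calls above depended on the fit. Under the scan-day effect the calls of Adamts4, Aif1, Aldh1l1, Aldh2, Anln, B2m, Cacng3, Calr, Cdh11, Cdk4, Col1a1, Cux1, Dcc, Dlg4, Elovl6, Eng, Ezh2, Fdps, Gfap, Grik5, Gsn, H2-D1, Hapln2, Icam5, Id3, Igfbp4, Irf1, Irs1, Kcnab3, Kif3b, Lrrtm1, Maoa, Mbd2, Mvd, Myo5a, Napb, Nlgn2, Nr4a2, Nrgn, Ntrk3, Olig1, P2ry12, Pdgfa, Pecam1, Rgs4, Robo1, Scd1, Sdhd, Slc12a5, Smarca2, Smarca4, Snap25, Sox11, Tapbp, Tardbp, Tent5c, Tm7sf2, Tmem119 and Ugt8a were lost. With the 10 arrays of the 2 ages alone, those of Anln, B2m, Bhlhe40, Cacng3, Ccng1, Cdh11, Col1a1, Cspg5, Dcc, Ezh2, Fdps, Fgf1, Gadd45a, Grik1, Grik5, H2-D1, Hdac11, Hmgb2, Maoa, Mapre2, Mbd2, Mrc1, Napb, Nr1d2, Nrgn, Pecam1, Rasgrf1, Robo1, Ryr2, Slc12a5, Smarca2, Snrpa1, Sox11, Tapbp and Tardbp were lost. When all tested probe sets of a gene were averaged, those of Aldoc, Dclk1, Eng, Gad1, Kcnab2, Mapre2, Mbd2, Napb, Ntrk3, Scd1, Scn1a, Sdhd, Smarca2, Smarca4, Tardbp and Tubb4b were lost.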

How the data were processed

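RNA from prefrontal cortex of 23 mice was measured on 23 arrays. The deposited values are on the log2 scale and were made by the authors with GCRMA, per the submitters' processing notes, in a version not given in the sources used here. No genome build is named. Of 22690 probe sets the 64 control ones were left out, and those with log2 of at least 4 on at least 4 arrays were kept, 16103 in all. GEO's annotation gave 1 symbol to 20393 probe sets, several to 691 and none to 1606, and 20364 were matched to current symbols by Entrez number. Array data carry no read depth, so the number of animals limits the precision.

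One fit of all 23 arrays in limma 3.58.1 (R 4.3.3), with a mean per age and a batch term taken from the titles, gave each change, with empirical Bayes moderation and Benjamini-Hochberg adjustment over all tested probe sets. Tables were made with Python 3.11.15, pandas 2.3.3 and scipy 1.17.1. The fit was tested on simulated data with independent noise and no added batch, scan-day or dissection effects, so that test does not bear on them. Named genes are called list members, largest change first, their family partners or the brightest uncalled members, and the 25 largest rises and 25 largest falls without overlap between ages. One of these genes is not reported here. The members and lists were chosen with earlier results of these data known. Animal numbers do not pair the ages, since each array held a different mouse. Deviations of same-numbered animals correlated at -0.14 for number 1 and 0.12 for number 6, too few values to test pairing. Alternatives varied the batch term, scan day, normalisation, filter, limma settings, RNA integrity, threshold, probe set choice and each array left out.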

Additional observations from a re-analysis of the deposited data

Results flagged for a closer look

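Of the 592 sets of one named gene in one age that were examined for a single stray animal, 40 had an animal whose gap to its nearest neighbour exceeded Dixon's limit, and chance alone flags about 1 in 20. The values below are log2 signals, each with the range of the other animals of its age, and no explanation was tested. Week 10 animal 1 stood apart in Cxadr at 5.92 (others 6.29 to 6.34), Dcakd at 6.35 (others 7.28 to 7.35), Dlg4 at 6.85 (others 8.33 to 8.63) and Dnmt1 at 8.45 (others 8.86 to 8.88). The same animal did so in Gabrb1 at 10.65 (others 10.12 to 10.19), Hmgb3 at 9.20 (others 8.55 to 8.61), L1cam at 10.45 (others 10.76 to 10.79) and Map2 at 6.55 (others 8.94 to 9.36). The same animal did so in Pdk2 at 8.97 (others 9.31 to 9.36), Peg3 at 11.90 (others 11.50 to 11.55) and Tmsb10 at 13.47 (others 13.77 to 13.82). Week 10 animal 6 stood apart in Dnmt3a at 7.70 (others 8.31 to 8.38), Eed at 7.26 (others 7.62 to 7.67), Hapln2 at 6.78 (others 6.11 to 6.17) and Napb at 11.92 (others 12.12 to 12.15). Week 10 animal 7 stood apart in Dcx at 7.35 (others 6.88 to 6.91), Lamb2 at 6.84 (others 6.20 to 6.25) and Lss at 7.07 (others 7.30 to 7.34). Week 10 animal 8 stood apart in Col1a1 at 5.70 (others 5.92 to 5.96), Dcc at 4.80 (others 4.95 to 4.96), Fkbp5 at 8.27 (others 8.50 to 8.52) and Lama4 at 5.21 (others 5.48 to 5.53). The same animal did so in Tmsb4x at 13.10 (others 13.16 to 13.17). Week 2 animal 3 (batch 1) stood apart in Ezh1 at 6.96 (others 6.77 to 6.84). Week 2 animal 4 (batch 1) stood apart in Nr4a2 at 6.77 (others 7.24 to 7.43) and Tmsb10 at 13.95 (others 14.17 to 14.29). Week 2 animal 5 (batch 1) stood apart in Bdnf at 6.64 (others 6.80 to 6.87). Week 2 animal 6 (batch 1) stood apart in Robo1 at 7.72 (others 8.35 to 8.72) and Rrm2 at 6.09 (others 6.56 to 6.83). Week 2 animal 1 (batch 2) stood apart in Ccng1 at 7.99 (others 8.45 to 8.60), Kcnip1 at 8.43 (others 7.77 to 8.01), Nnat at 12.57 (others 12.01 to 12.20) and Nptx1 at 9.71 (others 10.35 to 10.60). The same animal did so in Rplp0 at 13.20 (others 12.70 to 12.84), Ryr2 at 9.63 (others 9.95 to 10.09), Serpinh1 at 9.43 (others 8.87 to 9.05) and Tent5c at 4.40 (others 5.29 to 5.68). Week 2 animal 2 (batch 2) stood apart in Gal3st1 at 6.79 (others 7.22 to 7.39), Mapre1 at 10.41 (others 9.91 to 10.08) and Olig2 at 6.80 (others 7.06 to 7.20).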

How the results depend on the processing

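Of 2748 probe sets called, 1031 were higher and 1717 lower at week 10. The total was 1523 with 809 lower when scan day was a fixed effect and week 3 was left out. The 10 arrays of the 2 ages alone gave 588 higher. A threshold of at least 2-fold gave 248 in all, 58 higher and 190 lower. Leaving out 1 array at a time gave 2188 to 2685 in all, 744 to 974 higher and 1388 to 1720 lower. With animal number as a replicate block, although the numbers do not pair the ages, 2148 were called, 810 higher and 1338 lower. Centring each array on its median gave 50.9% of calls higher, against 37.5% without it. Without the 2 week 2 arrays lowest in striatal genes 2398 were called and without scan day 1 2203, both settings chosen after seeing the data. No probe set called in both the reported fit and an alternative fit had opposite signs in them. Of 217 named genes that were called, 135 kept the call under every alternative fit that tested them. A gene that the stricter filter left out was not counted as losing its call. With scan day fixed 59 lost it, with the 10 arrays alone 35 and with the animal block 23. Slc12a5 reversed to -0.18 when all its probe sets were averaged, and the scan day 4 arrays differed by 0.0 in Dcc, with no test. The cause of these shifts was not tested, except that the 10 arrays alone and single omissions use fewer samples. Signal near the filter limits what can be seen for dim genes.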

Other observations

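Growth hormone, a pituitary transcript, varied widely among week 10 animals. The probe set of Gh read 8.93, 3.48, 7.14 and 3.47 in week 10 animals 1, 6, 7 and 8, against 3.20 to 4.72 in the 6 week 2 animals, and it was not called. Prl, for prolactin, the other pituitary hormone gene measured, was 4.98 ± 0.04 at week 10 and 4.94 ± 0.10 at week 2.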
